A study of Drosophila melanogaster with 5 samples.

Results

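The 6 genes described here encode the core of the mitochondrial machinery that builds iron-sulphur (Fe-S) clusters: Nfs1, bcn92, IscU, fh, Fdx1 and Fdx2. The rule lists them by name and uses no measured value, and they were found by symbol and FlyBase identifier in a count table of 17494 genes. All 6 had reads in each library and all 6 were among the 11282 genes with an adjusted p-value, called tested genes here.

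Fe-S clusters are small cofactors of iron and sulphide that carry electrons or shape the active site of enzymes. In the mitochondrial matrix, the desulphurase Nfs1 takes sulphur from cysteine while bound to its small partner ISD11, the product of bcn92. The sulphur is joined to iron on the scaffold IscU, with frataxin (fh) stimulating the transfer and a ferredoxin supplying electrons that it receives from a ferredoxin reductase. Chaperones and carrier proteins then hand the clusters to the respiratory complexes, aconitase and lipoate synthase, and a sulphur compound made in mitochondria feeds a separate cytosolic assembly pathway. Flight muscle is packed with mitochondria and makes many Fe-S proteins of the respiratory chain.

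RNA was sequenced from dorsolongitudinal flight muscles of Drosophila melanogaster, from pupae reared at 25 °C to 48 h APF (after puparium formation), with the hand-dissected muscles of 6 to 8 pupae pooled in each library. The comparison asked how depletion of M1BP, a transcription factor that binds Motif-1 at core promoters, alters gene expression in this muscle. All libraries carried the driver Mef2-GAL4, which is active in muscle through all stages of its formation and is also known from some neurons. WT libraries (replicates 1, 2 and 3, n = 3) had the driver without an RNAi transgene, and M1BP RNAi libraries (replicates 2 and 3, n = 2) had it with UAS-M1BP RNAi, from the weaker of the lines used in the study. The labels do not say whether the libraries came from separate crosses, and p-values measure only the spread between these libraries.

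Libraries held 41676901 to 57514444 counts. M1BP itself had 666, 673 and 642 normalised read counts in WT against 410 and 456 in M1BP RNAi, a log2 fold change of -0.61 (standard error 0.136, adjusted p 1.04e-04 in DESeq2), which kept its sign in 15 of 15 alternatives and was called in 7. It was not called when any library was left out, by edgeR, with the replicate block or with lncRNA:roX1 as a covariate (adjusted p 0.0135 to 0.443 over these fits of DESeq2 and edgeR). A normalised read count is the raw count over a library's size factor, which corrects for depth. Markers of flight muscle were abundant in every library, with summed normalised read counts of 2822000 to 3855000 over 10 genes in WT and of 2568000 and 3062000 in M1BP RNAi, and 0 of the 10 were called. A gene was called at a DESeq2 adjusted p of at most 0.001 with a fold change of at least 1.5, and its fold change is given as M1BP RNAi over WT. The 18 counted testis genes of 20 listed summed to 239 to 358 in WT, 6847 in M1BP RNAi replicate 2 and 365 in replicate 3, with 4 of them called and none at 0 throughout, so M1BP RNAi replicate 2 stands apart in these markers. The male-specific RNA lncRNA:roX1 had 14.4, 4994 and 1062 normalised read counts in WT against 9618 and 5900 in M1BP RNAi. In pooled tissue, fewer cells of a type and less RNA per cell cannot be told apart.

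Of the 6 assembly genes, 2 rose in M1BP RNAi and 0 fell, against 3.78% of all tested genes called higher and 2.98% called lower (6.75% in either direction). The genes that rose were the pair that releases sulphur, Nfs1 at 1.70-fold and bcn92 at 1.60-fold. The scaffold IscU, frataxin and both ferredoxins were not called, with log2 fold changes of -0.24 to 0.18. The median log2 fold change over the 6 genes was 0.13, beside 0.02 over all tested genes. In edgeR, 0 of the 6 were called at the same thresholds, where 8 genes (0.0814%) were called in all, and 2 of the 6 had a DESeq2 unadjusted p under 0.05, against 35.7% of tested genes. At an edgeR adjusted p of at most 0.05 with the same fold, Nfs1 and bcn92 were again the genes called, against 8.27% of 9833 genes. With no fold minimum the same 2 genes passed an adjusted p of 0.001 in DESeq2, against 8.85% of tested genes. Both calls rested on having both M1BP RNAi libraries: 0 of the 6 genes were called when either one was left out.

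**Figure D1:**
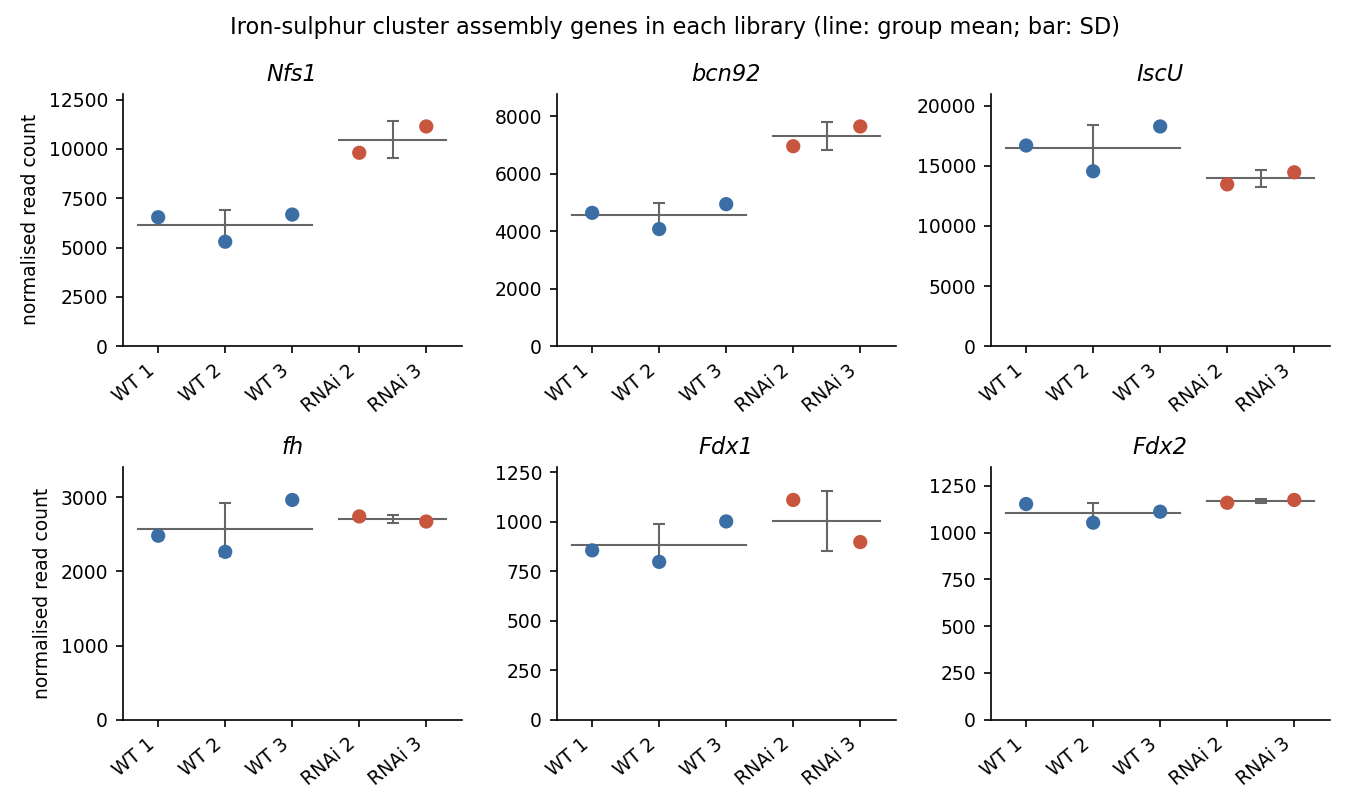
Normalised read counts (vertical axis, starting at 0) of the 6 assembly genes in WT replicates 1, 2 and 3 (blue) and M1BP RNAi replicates 2 and 3 (red). Lines mark group means and bars the SD. For Nfs1 and bcn92 both M1BP RNAi libraries sit above all WT libraries, by 1.70-fold and 1.60-fold on average, whereas for IscU both sit below.

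Nfs1 (FBgn0032393, protein coding, dm6 chromosome 2L, 11999654 to 12001244, plus strand, 2 exons of 1533 bases in all) encodes the cysteine desulphurase. It had 6535, 5294 and 6671 normalised read counts across WT replicates 1, 2 and 3, against 9803 and 11139 for M1BP RNAi replicates 2 and 3. The groups did not overlap, and the lowest M1BP RNAi library was above the highest WT library. Nfs1 rose from a WT mean of 6166 ± 759 (SD, n = 3) to a mean of 10471 ± 944 (SD, n = 2), a log2 fold change of 0.76 (standard error 0.152, adjusted p 9.91e-06 in DESeq2), or 1.70-fold with a 95% interval of 1.38 to 2.09. The edgeR adjusted p was 0.0237. Over 15 alternative settings the log2 fold change lay between 0.65 and 0.88, and Nfs1 was called in 12. It was not called by edgeR, without M1BP RNAi replicate 2 (log2 fold change 0.87, DESeq2 adjusted p 0.00183) or without M1BP RNAi replicate 3 (log2 fold change 0.68, DESeq2 adjusted p 0.0107). Testis markers summed to 6847 in M1BP RNAi replicate 2 and 365 in replicate 3, and their part in the result was not tested.

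bcn92 (FBgn0013432, protein coding, chromosome X, 2148463 to 2149647, minus strand, 3 exons, 748 bases) encodes the fly ISD11, also known as LYRM4 in mammals, a small protein without which the desulphurase is unstable in yeast and human cells. Its normalised read counts were 4642, 4077 and 4944 in WT and 6964 and 7651 in M1BP RNAi. As with Nfs1, the M1BP RNAi libraries lay above all WT libraries, with replicate 3 the higher. bcn92 rose from a WT mean of 4555 ± 440 (SD, n = 3) to a mean of 7307 ± 486 (SD, n = 2), a log2 fold change of 0.68 (standard error 0.128, adjusted p 2.22e-06 in DESeq2), or 1.60-fold with a 95% interval of 1.35 to 1.91. It was called in 10 of 15 alternatives, with log2 fold changes of 0.60 to 0.76, and was lost without M1BP RNAi replicate 2 (DESeq2 adjusted p 0.00340) or replicate 3 (DESeq2 adjusted p 0.00911). With lncRNA:roX1 as a covariate the log2 fold change was 0.75 and bcn92 was not called (DESeq2 adjusted p 0.00242). That fit called 302 genes over all in place of 762, and the part of lncRNA:roX1 in the result was not tested.

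IscU (FBgn0037637, protein coding, chromosome 3R, 8822849 to 8824177, minus strand, 3 exons, 955 bases) encodes the scaffold on which a cluster is first put together. It had 16697, 14552 and 18283 normalised read counts in WT against 13462 and 14466 in M1BP RNAi. Both M1BP RNAi libraries lay below all WT libraries, although replicate 3 was only just under WT replicate 2. The means were 16510.4 ± 1873 (SD, n = 3) and 13964 ± 710 (SD, n = 2), and the log2 fold change of -0.24 (standard error 0.133, adjusted p 0.177 in DESeq2) did not pass the test. Its 95% interval reached from -0.50 to 0.02. IscU was not called in any of the 15 alternatives, where the log2 fold change was -0.34 to -0.16.

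fh (FBgn0030092, protein coding, chromosome X, 9148080 to 9149071, minus strand, 2 exons, 927 bases) encodes frataxin, the protein deficient in human Friedreich ataxia. Its normalised read counts were 2482, 2264 and 2964 in WT, and the values in M1BP RNAi, 2742 and 2673, lay within that range. The log2 fold change was 0.08 (standard error 0.157, adjusted p 0.775 in DESeq2), with a 95% interval of -0.23 to 0.38. fh was the only one of the 6 genes whose sign changed in any alternative, and it changed in 1 of 15.

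Fdx1 and Fdx2 encode mitochondrial ferredoxins, small electron carriers that themselves hold a cluster. Fdx1 (FBgn0011769, protein coding, chromosome 3L, 9370195 to 9371238, minus strand, 4 exons, 741 bases) had 854, 796 and 1001 normalised read counts in WT against 1109 and 896 in M1BP RNAi. The groups overlapped, and the log2 fold change was 0.18 (standard error 0.190, adjusted p 0.524 in DESeq2, 95% interval -0.19 to 0.56). Fdx2 (FBgn0035529, protein coding, chromosome 3L, 4292482 to 4293432, plus strand, 2 exons, 863 bases) had 1153, 1054 and 1112 in WT and 1160.1 and 1175 in M1BP RNAi. The groups did not overlap but differed by little, with a log2 fold change of 0.08 (standard error 0.103, adjusted p 0.633 in DESeq2) and a 95% interval of -0.12 to 0.28. Fdx2 had the smallest SE of the 6 genes. Counting all 6, the groups did not overlap for 4 (Nfs1, bcn92 and Fdx2 higher, IscU lower), where 48.9% of tested genes did not overlap (27.1% higher and 21.9% lower).

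Electrons reach these ferredoxins from a reductase encoded by dare (FBgn0015582, chromosome 2R), a homologue of the human adrenodoxin reductase that is also known for its need in steroid hormone synthesis. dare had 846, 774 and 892 normalised read counts in WT against 232 and 243 in M1BP RNAi. It fell from a WT mean of 837 ± 59.6 (SD, n = 3) to a mean of 237 ± 7.72 (SD, n = 2), 3.54-fold lower with a 95% interval of 2.88 to 4.34 (log2 fold change -1.82, standard error 0.152, adjusted p 4.63e-31 in DESeq2, edgeR adjusted p 0.00160). This was the largest change measured among the 6 genes and the 12 tested partners of the mitochondrial pathway, and it was called in 14 of 15 alternatives. On a per-length scale, as normalised read counts per kilobase of exon, dare fell from 498 to 141 on average, while the mean of Fdx1 was 1193 in WT and 1353 in M1BP RNAi and that of Fdx2 was 1282 and 1353.

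Levels of the 6 genes were compared with one another per kilobase of exon. In WT, IscU was at 17290 ± 1960 (SD, n = 3) normalised read counts per kilobase, bcn92 at 6089 ± 588 and Nfs1 at 4022 ± 495. fh followed at 2772 ± 387, then Fdx2 at 1282 ± 58.1 and Fdx1 at 1193 ± 142 (SD, n = 3 each). Neighbours in this order did not overlap between libraries except the ferredoxins, which were at 1221 to 1336 for Fdx2 and 1075 to 1350 for Fdx1 and so did not differ beyond their spread. On the same scale IscU stood at percentile 98.0 in WT and Fdx1, the lowest, at percentile 85.9. These percentiles are over all genes with any read in WT, tested or not. In M1BP RNAi the order was kept down to fh, with IscU at 14620 ± 743, bcn92 at 9769 ± 650, Nfs1 at 6830 ± 616 and fh at 2921 ± 52.1 (SD, n = 2 each). The ferredoxins again overlapped, with means of 1353 for both.

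**Figure D2:**
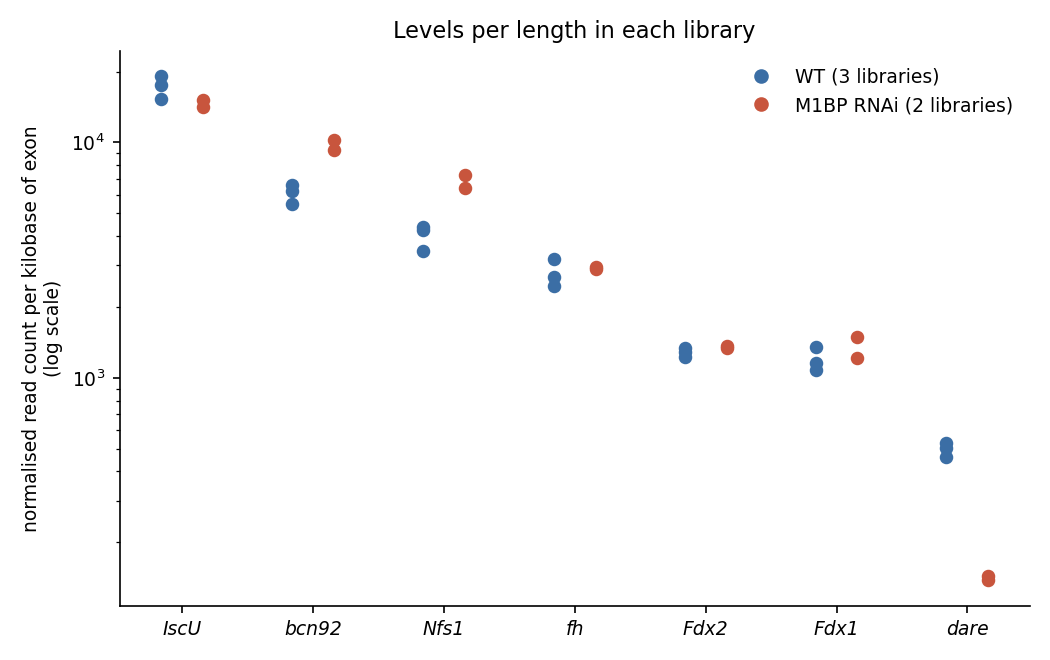
Normalised read counts per kilobase of exon (vertical axis, log scale) of the 6 assembly genes and of dare, with 1 point per library for WT (blue, 3 libraries) and M1BP RNAi (red, 2 libraries). IscU is the highest in each library, the distance from IscU to bcn92 and Nfs1 is smaller in M1BP RNAi than in WT, and dare drops from a mean of 498 to 141.

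Because the desulphurase pair and the scaffold lay on opposite sides of WT, their ratios were taken within each library, where the size factor cancels. The level of Nfs1 per kilobase was 0.244, 0.227 and 0.227 of that of IscU in WT, and 0.454 and 0.480 in M1BP RNAi. The level of bcn92 was 0.355, 0.358 and 0.345 of that of IscU in WT, and 0.660 and 0.675 in M1BP RNAi. Both ratios were apart between groups and nearly constant within them, differing by 2.01-fold for Nfs1 to IscU and 1.89-fold for bcn92 to IscU. No test is given for these ratios: both were chosen with the genes known to lie apart from WT on opposite sides in both M1BP RNAi libraries, which fixes that the ratios do not overlap. The ratio of Nfs1 to bcn92 was 0.687, 0.634 and 0.658 in WT and 0.687 and 0.710 in M1BP RNAi, so the groups touched at 0.687, and the ratio differed by 1.06-fold.

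**Figure D3:**
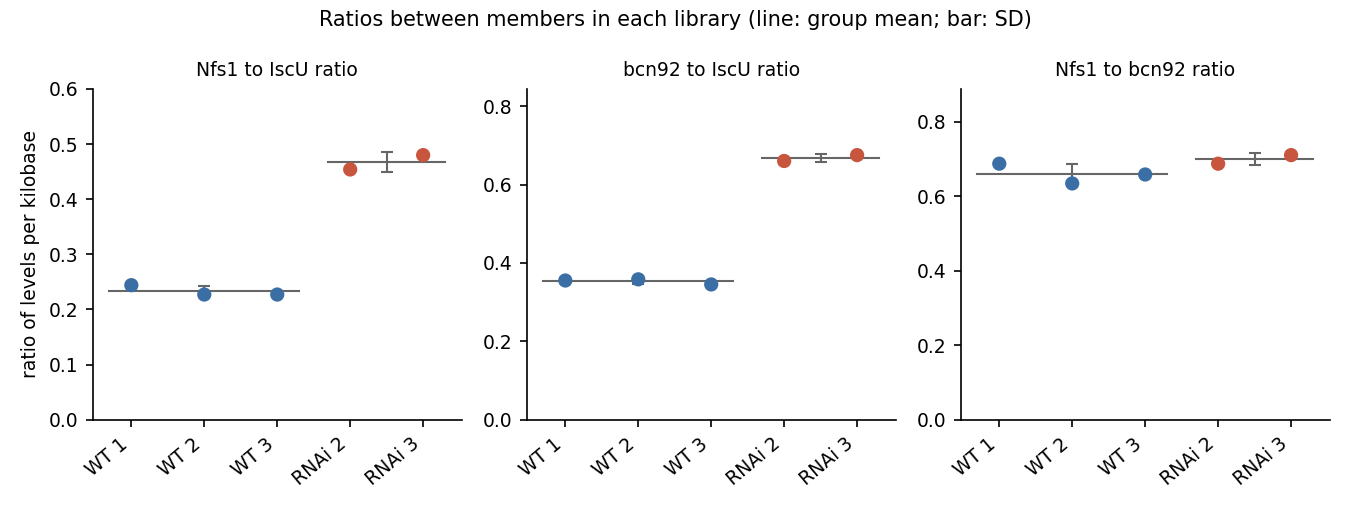
Ratios of levels per kilobase (vertical axes, starting at 0) in each library, for Nfs1 to IscU (left), bcn92 to IscU (middle) and Nfs1 to bcn92 (right), in WT (blue) and M1BP RNAi (red), with lines for group means and bars for the SD. The first ratios go from 0.227 to 0.244 in WT to 0.454 and 0.480 in M1BP RNAi and from 0.345 to 0.358 to 0.660 and 0.675, whereas Nfs1 to bcn92 stays between 0.634 and 0.710.

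The 6 genes had much the same order over the WT libraries. Each of the 6 was lowest in WT replicate 2, as were 31.9% of all tested genes, and 5 of the 6 were highest in WT replicate 3, the exception being Fdx2. The share of tested genes highest in WT replicate 3 was not computed. This order was not particular to the 6 genes. The 4 most abundant genes of proteins that receive clusters, mAcon1, ND-75, RFeSP and ND-51, were also lowest in WT replicate 2 and highest in WT replicate 3. Relative to its WT mean, the log2 value in WT replicate 2 was -0.22 for Nfs1, -0.18 for IscU, -0.18 for fh, -0.16 for bcn92, -0.15 for Fdx1 and -0.07 for Fdx2. These deviations were smaller than the differences of Nfs1 and bcn92 from WT, which were 0.67 and 0.85 for Nfs1 and 0.61 and 0.75 for bcn92 in M1BP RNAi replicates 2 and 3. Without WT replicate 2 both genes were still called.

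To find genes with the same pattern, the profile of each called gene over the 5 libraries, as log2 of the normalised read count plus 1 less its WT mean, was compared with that of 7585 genes with a mean of at least 100. The profiles most like that of Nfs1 were those of Shawn and Tyler, at a root mean square log2 difference of 0.0581, and of CG12170 at 0.062. For bcn92 they were CG12170 at 0.0301, then Shawn and Tyler at 0.0389. Shawn and Tyler are listed over the same span of chromosome X with the same 3334 exon bases and have identical counts, so they are 1 measurement and cannot be told apart. Shawn had 1100.2, 921 and 1137 normalised read counts in WT against 1688 and 1747 in M1BP RNAi (log2 fold change 0.71, DESeq2 adjusted p 2.60e-05), and CG12170 went from 2779 to 4574 on average (log2 fold change 0.72, DESeq2 adjusted p 1.49e-08). bcn92 ranked 7 among the profiles like that of Nfs1, at a difference of 0.0663, and Nfs1 ranked 14 for bcn92. IscU stood at the other end among the 6 genes, at a difference of 0.637 from Nfs1 and 0.583 from bcn92. These ranks rest largely on fold changes in the same 5 libraries, so they describe the pattern and add no support to the calls.

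Partners of the 6 proteins in the mitochondrial pathway were counted as a list. Of 14 listed partners 12 were tested, 0 were called higher and 1 lower (dare), a share of 8.33% against 6.75% of all tested genes, and their median log2 fold change was 0.02, the same as over all genes. Among abundant partners, the acyl carrier protein ND-ACP, which binds ISD11, had a log2 fold change of 0.06 (DESeq2 adjusted p 0.820), and the mitochondrial Hsp70 chaperone Hsc70-5, which releases clusters from the scaffold, 0.21 (DESeq2 adjusted p 0.298). The iron importer mfrn was at 0.23 (DESeq2 adjusted p 0.106) and the glutaredoxin CG14407, which receives the cluster, at -0.02. Hsc20, the co-chaperone that brings the scaffold to the Hsp70, was at -0.14. Alr, a sulphydryl oxidase, and MagR, a carrier of the IscA type, had log2 fold changes of 0.46 (DESeq2 adjusted p 4.66e-05) and 0.49 (DESeq2 adjusted p 0.00345) and were not called, Alr for the fold minimum and MagR for both thresholds. Hsc20, Alr and MagR were named after their values were seen. Nfu-type genes CG33502, CG32857 and CG32500 had few counts and are near-identical copies, so their values are uncertain.

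Genes of the cytosolic pathway, which depends on the mitochondrial one, were counted in the same way. All 9 were tested, and 2 were called higher and 0 lower (22.2% against 6.75%). The log2 fold change was positive for 9 of 9, from 0.01 to 0.97, and the median was 0.31. The share of tested genes with a positive value was not computed, and their median was 0.02. CIAPIN1, which carries electrons to the cytosolic scaffold, had 1513, 1570.2 and 1589 normalised read counts in WT and 3047 in both M1BP RNAi libraries. It rose by 1.96-fold (log2 fold change 0.97, standard error 0.0777, adjusted p 2.46e-33 in DESeq2), but shares 1197 exon bases with yellow-c on the other strand, whose mean was 1260.3 and whose log2 fold change was -0.32 (DESeq2 adjusted p 0.407). CG4858, the scaffold protein Nubp2, had 981, 901 and 1080.4 in WT and 1507 and 1802 in M1BP RNAi, and rose by 1.67-fold (log2 fold change 0.74, standard error 0.160, adjusted p 5.91e-05 in DESeq2). It was called in 8 of 15 alternatives, and of the fits that left out a library it was called only in the one without WT replicate 3, with log2 fold changes of 0.62 to 0.88 over these fits. CIAPIN1 was called in 13 of 15. CG17904, the partner scaffold protein Nubp1, had a log2 fold change of 0.46 (DESeq2 adjusted p 2.61e-05), under the fold minimum. Of the proteins that deliver clusters to their targets, Ciao1 had a log2 fold change of 0.19 (DESeq2 adjusted p 0.228) and galla-1 of 0.14 (DESeq2 adjusted p 0.498), and CG17683, of the Nar1 type, of 0.30 (DESeq2 adjusted p 0.0441).

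**Figure D4:**
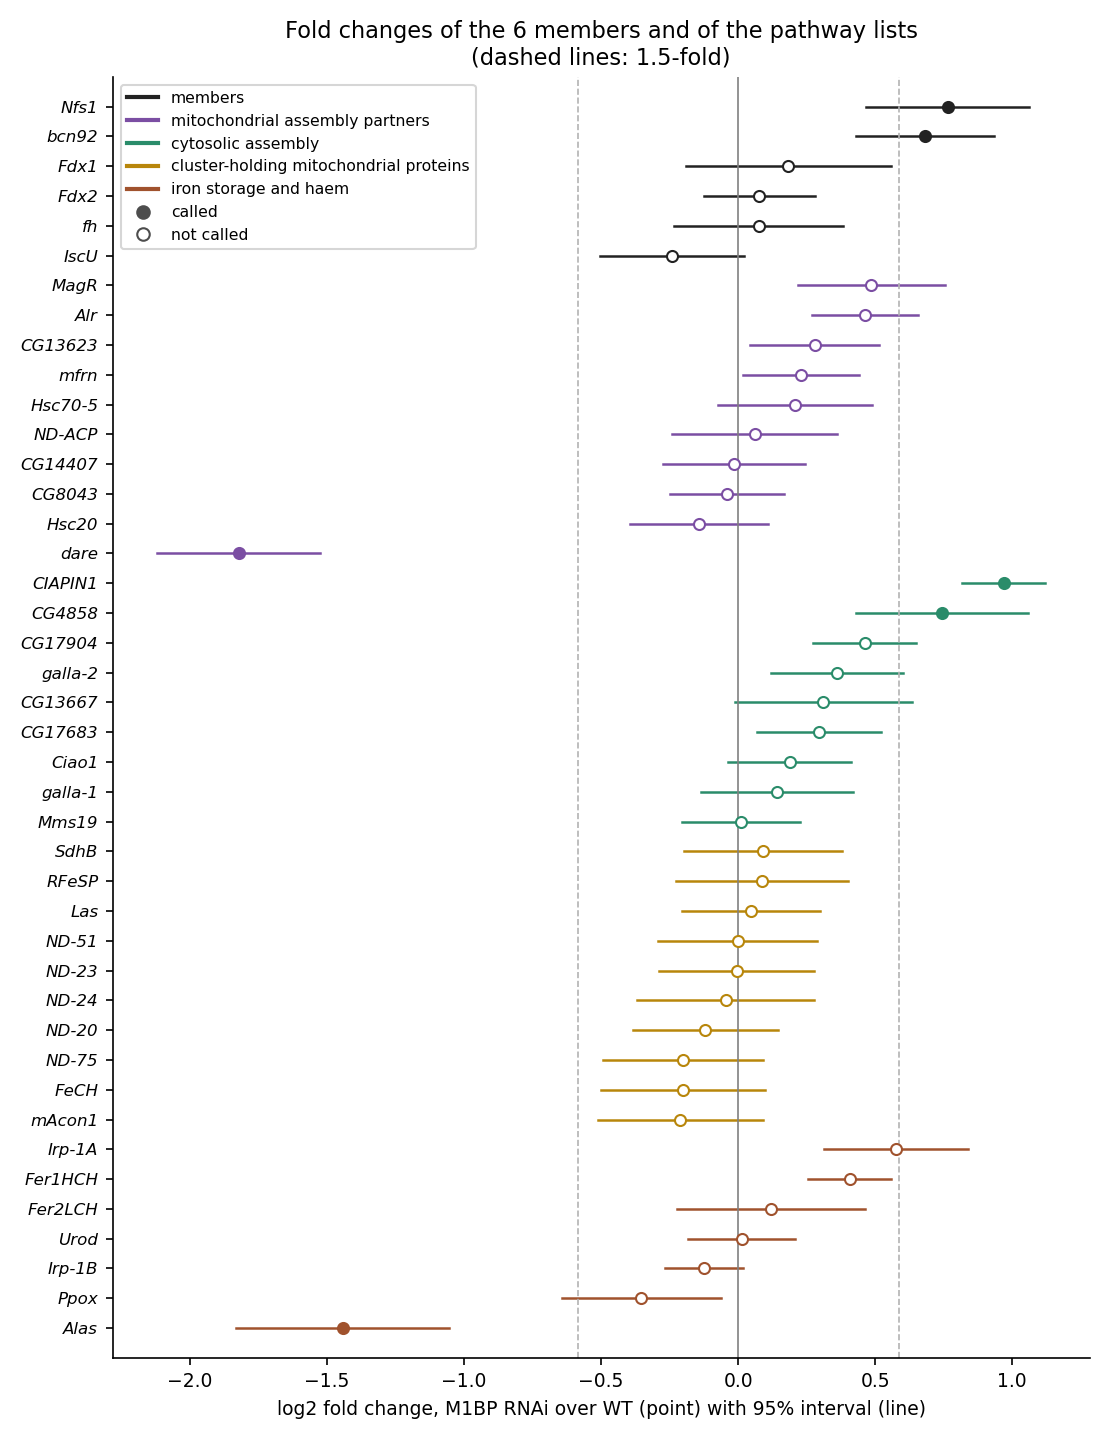
Log2 fold change of M1BP RNAi over WT (horizontal axis, points) with its 95% interval (lines) for the 6 assembly genes and for the tested genes of the 4 pathway lists with a mean normalised read count of at least 100, apart from 1 partner. Filled points were called, dashed lines mark 1.5-fold, and colours mark the list. Nfs1, bcn92, CIAPIN1 and CG4858 are called higher, dare and Alas lower, and the cluster-holding mitochondrial proteins lie close to 0.

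Proteins that receive the clusters in mitochondria were examined next. Of 11 such genes 0 were called in either direction by DESeq2, where 6.75% of all tested genes were, and 0 by edgeR. An unadjusted p under 0.05 in DESeq2 was found for 1 of the 11, against 35.7% of tested genes, and the groups did not overlap for 0, against 48.9%. The median log2 fold change of the 11 was -0.0046. With a list of this size, a count of 0 calls lies near the share over all genes. Aconitase (mAcon1), an Fe-S enzyme of the citric acid cycle, had 297764, 234502 and 310266 normalised read counts in WT against 238550.0 and 246613 in M1BP RNAi, with a log2 fold change of -0.21 (DESeq2 adjusted p 0.328). The Complex I subunit ND-75 was at -0.20 (DESeq2 adjusted p 0.341), ND-51, also of Complex I, at 0.00 (DESeq2 adjusted p 0.994) and the Rieske protein RFeSP of Complex III at 0.09 (DESeq2 adjusted p 0.740). The second aconitase gene, mAcon2, named after its values were seen, had 10.6 to 14.4 normalised read counts in WT, 160.0 in M1BP RNAi replicate 2 and 5.89 in replicate 3, and was called only without M1BP RNAi replicate 3.

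Among 8 genes of iron storage and haem synthesis, 0 were called higher and 1 lower, a share of 12.5% against 6.75% of all tested genes, and the median log2 fold change was 0.07. Alas, the enzyme of the first step of haem synthesis, had 9941, 7857 and 11681 normalised read counts in WT against 3470.2 and 3761 in M1BP RNAi. It fell 2.72-fold (log2 fold change -1.44, standard error 0.198, adjusted p 1.53e-11 in DESeq2), and was called in 14 of 15 alternatives. The ferritin heavy chain gene Fer1HCH had a log2 fold change of 0.41 (DESeq2 adjusted p 3.83e-06), under the fold minimum, and the light chain gene Fer2LCH one of 0.12 (DESeq2 adjusted p 0.664). Irp-1B, of the iron regulatory protein family, was at -0.12 (DESeq2 adjusted p 0.203) and Urod, a later enzyme of haem synthesis, at 0.01 (DESeq2 adjusted p 0.943). Irp-1A, named after its values were seen, had a log2 fold change of 0.58 (DESeq2 adjusted p 2.35e-04) and was called with TMM size factors.

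Together the 4 lists held 42 genes, of which 40 were tested, 2 called higher and 2 lower (10.0% against 6.75%), with a median log2 fold change of 0.07. The study's own list of 19 Fe-S genes, which includes 5 of the 6 assembly genes (not Fdx2) as well as carriers and scaffolds, gave 17 tested genes, 3 higher (Nfs1, bcn92, CG4858) and 1 lower (dare). Its median log2 fold change was 0.18 and its share of called genes 23.5%, against 6.75% of all tested genes. Each called gene of this list is also among the 6 genes or the 4 lists, so it adds no further call. CG31126, which RefSeq lists as BolA1, had a log2 fold change of -0.15 (DESeq2 adjusted p 0.453). Qtzl, known as a chimaeric gene that took part of its sequence from Nfs1, lies close to Nfs1 at 11995740 to 11996723 on the same strand. It had 64.2, 54.8 and 39.4 normalised read counts in WT against 135.9 and 165 in M1BP RNAi (log2 fold change 1.51, standard error 0.387, adjusted p 0.00107 in DESeq2), just past the threshold and not called. Reads kept only where they aligned uniquely leave the shared stretch of both genes uncertain, and Qtzl was far below Nfs1 in each library.

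The surroundings of the 6 genes were read from the gene coordinates deposited with the counts. For 4 of the 6, a gene on the opposite strand had its start site within 500 bases upstream, an arrangement found for 29.7% of tested genes. Nfs1 starts 314 bases from CG18787, which had 70.8, 69.0 and 68.1 normalised read counts in WT against 142 and 120 in M1BP RNAi (log2 fold change 0.92, DESeq2 adjusted p 0.0121, not called). IscU starts 234 bases from CG8379, which had 1156, 1080 and 1218 in WT and 826 and 728 in M1BP RNAi (log2 fold change -0.57, standard error 0.135, adjusted p 3.76e-04 in DESeq2, under the fold minimum). Each of these neighbours lay on the same side of WT as its partner in both M1BP RNAi libraries, and neither passed both thresholds. Of all tested genes, 27.1% lay above all WT libraries in this way and 21.9% below. fh starts 238 bases from Bap111, at a log2 fold change of -0.04, and Fdx2 236 bases from CG15012, at 0.25 (DESeq2 adjusted p 0.302). For both Bap111 and CG15012 the groups overlapped. bcn92 and Fdx1 have no such neighbour. These neighbours were chosen by position, after values of the 6 genes were known.

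Exons of 3 of the 6 genes overlap a gene on the other strand, and whether counting used the strand is not stated. Nfs1 shares 11 bases with Hacd1 (mean 494, log2 fold change 0.14), bcn92 104 bases with Pgd (mean 603, log2 fold change -0.18) and Fdx1 106 bases with CG4452 (mean 250.3, log2 fold change -0.59, DESeq2 adjusted p 0.125). Neither Hacd1 nor Pgd was called, and the part of the shared bases in the counts of Nfs1 and bcn92 was not tested. dare shares 103 bases with CG18335 on its own strand (mean 88.2) and 369 bases with CG30033 on the other (mean 1.24).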

How the data were processed

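RNA-seq libraries of flight muscle at 48 h APF, 3 of WT and 2 of M1BP RNAi, were grouped by their titles. The authors deposited raw read counts per gene over exons, made per the file headers from uniquely aligned reads on dm6, with the summed exon length of each gene in bases. The submitters' processing notes name bcl2fastq 2.17.1.14, featureCounts, Subread 2.0.3 and DESeq2 1.3.0. The aligner, the annotation release and the strand setting of counting are not given in the sources used here. A second deposited table holds the authors' comparison: a mean normalised count (a signal averaged over libraries), a log2 fold change, its standard error (listed as a score) and p-values. Its symbols and identifiers alone were read. All count columns matched a sample (0 without one).

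Counts were fitted in R 4.3.3 with the Wald test of DESeq2 1.42.0 on all 5 libraries with default settings and no covariate, with Benjamini-Hochberg adjustment over 11282 genes. Genes were called where the adjusted p did not exceed 0.001 and the change was 1.5-fold or more, as in the study. The edgeR 4.0.16 quasi-likelihood test was an alternative, 1 of 15, and the scripts were tested on simulated data. Levels were compared between genes as normalised counts per kilobase of exon. Ratios between genes were described without a test: the exact two-sided permutation test fixed for them has a smallest p of 0.1 with 3 against 2 libraries, and the choice of ratios settled the separation of 2 of them. Intervals are 95% intervals of the fitted fold change. The 6 genes and all lists were chosen with earlier results of these data known. Named genes were, by rule, M1BP, the 6 genes, called genes of the lists, the 4 most abundant uncalled genes of each list, the 3 profiles most like each called gene, and genes that overlap or share sequence with the 6; others are said to be named after their values were seen. The supplied Ensembl annotation held 17358 of the 17494 identifiers, 17230 with the same start and end, the 6 genes among them. The counts of fat body, haemocyte, neuron and tracheal markers were also summed, with 0 called: fat body 7278 to 15420 in WT against 16770 and 16200 in M1BP RNAi replicates 2 and 3, haemocytes 3277 to 6748 against 9011 and 6012, neurons 6091 to 6660 against 5379 and 5349, and trachea 5055 to 5695 against 3097 and 4729. A single partner on the mitochondrial list is counted in the list but not reported here.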

Additional observations from a re-analysis of the deposited data

How the results depend on the processing

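Of the 6 assembly genes, 2 were called by DESeq2 with no covariate, 0 by edgeR at the same thresholds (2 had an unadjusted p under 0.05 in DESeq2), 1 with the replicate block (Nfs1), 1 with lncRNA:roX1 as a covariate (Nfs1), and 0 to 2 when each library was left out in turn. The lowest count, 0, came without either M1BP RNAi replicate, where a single library remained and was assumed to vary like WT. For Nfs1 and bcn92 the direction held in each of the 15 alternatives. The pathway lists, with 40 tested genes, gave 4 calls by DESeq2 (10.0%, against 6.75% of all tested genes) and 0 by edgeR. A DESeq2 unadjusted p under 0.05 was found for 15 of the 40, near the 35.7% of all tested genes. With no fold minimum 8 of the 40 passed, where 8.85% of all tested genes did. These lists gave 2 calls with the replicate block (dare and Alas) and 3 to 4 with a WT library left out. Over all genes, 762 were called by DESeq2, 8 by edgeR, 1799 at an adjusted p of 0.05, 315 with the replicate block, 302 with lncRNA:roX1 as a covariate, and 319 to 937 with a library left out, 491 without WT replicate 2 and 319 without M1BP RNAi replicate 2. The cause of these differences was not tested.

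Replicate numbers 2 and 3 occur in both groups. Deviations of same-numbered libraries from their group means correlated at -0.258 and -0.116 over 7589 genes, so the numbers were not used to pair libraries, and the block gave log2 fold changes of 0.81 for Nfs1 and 0.70 for bcn92. The ratio of Nfs1 to bcn92 kept its direction with any library left out. For the ratios of Nfs1 and bcn92 to IscU, leaving out a library could not change the direction, since their choice had settled it. Intervals of the uncalled genes still include changes of up to -0.50 (IscU) and 0.56 (Fdx1) on the log2 scale.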
